A study of Mus musculus with 12 samples.

Results

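Genes of the hormone-secreting cell were followed through the brain and the stomach of chitosan-treated mice: ghrelin (Ghrl), somatostatin (Sst), chromogranin A (Chga), secretogranin V (Scg5) and carboxypeptidase E (Cpe). They were chosen by name, with earlier results of these data known. Every probe that the probe annotation assigns to one of these symbols was taken. Each gene had 1 probe, so that 5 of 29922 probes, or 5 of 16675 named genes, are described. The mice were male PPRE transgenic FVB mice of 6 to 8 weeks, heterozygous for a luciferase reporter driven by PPAR response elements and a minimal promoter, and all groups carried this reporter. Mock mice received saline subcutaneously, chitosan mice received 0.2 g/kg chitosan (as chitosan oligosaccharide lactate) by the same route, and the organs were taken on day 3. Each of the 4 groups (mock brain, chitosan brain, mock stomach and chitosan stomach) held 3 arrays from independent mice. Whether a brain and a stomach came from the same animal is not stated by the labels or the methods.

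Peptide hormones are made as longer precursors, sorted into dense-core granules, cut there by prohormone convertases and trimmed by carboxypeptidases before they are released. Ghrelin is a hunger hormone that reaches the blood mainly from endocrine cells in the acid-secreting mucosa of the stomach. Somatostatin comes from D cells of the gastric glands, where it restrains gastrin, histamine and acid release, and from inhibitory interneurons in the brain. Chromogranin A and secretogranin V are cargo proteins of the granules. Secretogranin V, also called 7B2, is in addition the chaperone of prohormone convertase 2, and carboxypeptidase E removes the basic residues that the convertases leave behind.

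The start regions of the hormone genes are shown because Ghrl and Sst had the lowest chitosan to mock ratios of the 5 genes in the stomach and because the mice report on PPAR response elements. RefSeq windows of 300 bases, from 250 before to 50 from each start (build GRCm38.p6), were at hand for 4 of the 5 genes, in 7 windows; Cpe had none. The first of the sequences below is the most upstream Ghrl start (chr6:113719862-113720161, minus strand), with a TATA box in capitals. The next is a more downstream Ghrl start (chr6:113719405-113719704, minus strand), with both copies of the hexamer AGGTCA, the core hexamer of PPAR elements, in capitals. The last is the Sst start (chr16:23890795-23891094, minus strand), with the cyclic AMP response element in capitals.
Ghrl, upstream start: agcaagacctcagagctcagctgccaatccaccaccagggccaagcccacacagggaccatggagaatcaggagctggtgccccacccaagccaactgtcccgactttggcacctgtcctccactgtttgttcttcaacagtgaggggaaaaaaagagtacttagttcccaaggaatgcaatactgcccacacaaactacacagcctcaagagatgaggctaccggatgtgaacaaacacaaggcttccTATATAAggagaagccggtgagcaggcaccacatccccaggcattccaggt
Ghrl, downstream start: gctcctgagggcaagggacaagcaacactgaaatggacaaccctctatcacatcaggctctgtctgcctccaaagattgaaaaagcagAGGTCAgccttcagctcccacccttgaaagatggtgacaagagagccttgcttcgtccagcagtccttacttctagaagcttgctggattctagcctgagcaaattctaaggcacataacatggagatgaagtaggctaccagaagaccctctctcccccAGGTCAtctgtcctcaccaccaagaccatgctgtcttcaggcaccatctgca
Sst: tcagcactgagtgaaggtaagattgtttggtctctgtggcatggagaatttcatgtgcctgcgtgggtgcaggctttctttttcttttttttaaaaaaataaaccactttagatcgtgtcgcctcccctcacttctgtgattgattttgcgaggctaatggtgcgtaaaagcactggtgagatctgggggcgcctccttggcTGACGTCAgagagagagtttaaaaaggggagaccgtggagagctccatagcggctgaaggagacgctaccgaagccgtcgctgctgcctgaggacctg
All 4 motifs were searched as letters. AGGTCA, on both strands, was held by 16.3% of 32851 windows, so that its presence at the downstream Ghrl start and at another start whose window overlaps it is common. Its direct repeat with 1 base between the copies, AGGTCANAGGTCA, was held by 0.0396% of the windows and by none of the 7. The cyclic AMP response element, TGACGTNA on both strands, was held by 2.93% of the windows and occurred at bases 203 to 210 of the Sst window and at bases 207 to 214 of the Chga window. The TATA box, TATANAA on the strand of the gene, was held by 7.2% of the windows. It occurred at bases 250 to 256 of the window of the upstream Ghrl start. In the Chga window it occurred at bases 254 to 260 and 256 to 262. These matches span or follow the annotated start, which comes after base 250 of a window. No motif was found in the Scg5 window. These matches are letters, and whether a factor bound there was not measured. The direct repeat was searched only with exact copies of the hexamer. The PPAR element that the paper prints for the reporter of these mice holds an inexact copy. The search for the direct repeat would therefore have missed that element. Its result for the 7 windows cannot show whether they hold a PPAR element.

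The values are Cy5 intensities of single-color arrays on a linear scale. All 12 arrays had a highest intensity of 28367.2, medians of 47 to 47.8 and lowest intensities of 34.3 to 35.25, and a probe was counted as expressed when a group mean lay above 2 times the lowest intensity. Between 9.52% and 10.6% of the probes of an array lay above that level. Differences were tested with limma on log2 intensity and adjusted over all 29922 probes, with a threshold of 0.05. With 3 arrays against 3, the exact permutation test cannot go below p = 0.1. The number of distinct intensities differed between the arrays (268 to 947), and chitosan stomach array 3 had the fewest. It ran from 308 to 382 in mock brain and from 447 to 947 in chitosan brain. In mock stomach it ran from 579 to 884 and in chitosan stomach from 268 to 651. This array property thus differed with treatment and organ and cannot be fully told apart from them. Of 12 neuron genes 5 lay above that level in mock brain, Snap25 the brightest (4960 ± 1012; SD, n = 3), while Syp, Mtap2, Nefl, Nefm, Slc17a7, Gad1 and Gad2 were at background. In mock stomach 8 of 10 parietal cell genes and 2 of 6 chief cell genes lay above it, among them Pgc, pepsinogen C (2300 ± 569). None of 15 genes of the hypothalamus and pituitary did so in a brain group, which on arrays where general neuron genes are also at background does not show that these regions were missing.

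Without treatment, ghrelin was a stomach gene, and secretogranin V, carboxypeptidase E and somatostatin were brighter in the brain. On the mock stomach arrays Ghrl had intensities of 2864, 2669 and 3376, against 60.8, 50.4 and 48.9 on the mock brain arrays. The brain values lay below the level for an expressed probe, and the groups did not come near each other. The difference of 5.80 on the log2 scale (SE 0.29, adjusted p = 2.3e-04, limma) is limited by the background of the brain arrays. Scg5 had intensities of 1562.5, 1706 and 821 in mock brain and of 91.2, 135 and 85.9 in mock stomach, a log2 difference of -3.67 (SE 0.40, adjusted p = 0.0014, limma). Cpe had 225, 178 and 297 in mock brain and 56.5, 97.3 and 62.9 in mock stomach, a difference of -1.70 (SE 0.29, adjusted p = 0.0134, limma). The 3 genes were thus called among 6.38% of all probes. The call of Cpe was lost with all 12 arrays in 1 model (adjusted p = 0.091), with the replicate number as a block (0.0728), and without mock stomach array 1 or 3.

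Somatostatin in the untreated mice was nearer between the organs. Sst had intensities of 346, 279 and 539 in mock brain and of 138, 268 and 166 in mock stomach, and the lowest brain array was only just above the highest stomach array. The log2 difference of -1.03 (SE 0.40) did not pass the test (adjusted p = 0.236, limma). Chga lay at background everywhere: its 12 intensities ran from 43.9 to 56.5, and none was above 2 times the lowest. The probe of this general endocrine marker therefore carries little information on the level of its transcript here.

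**Figure D1:**
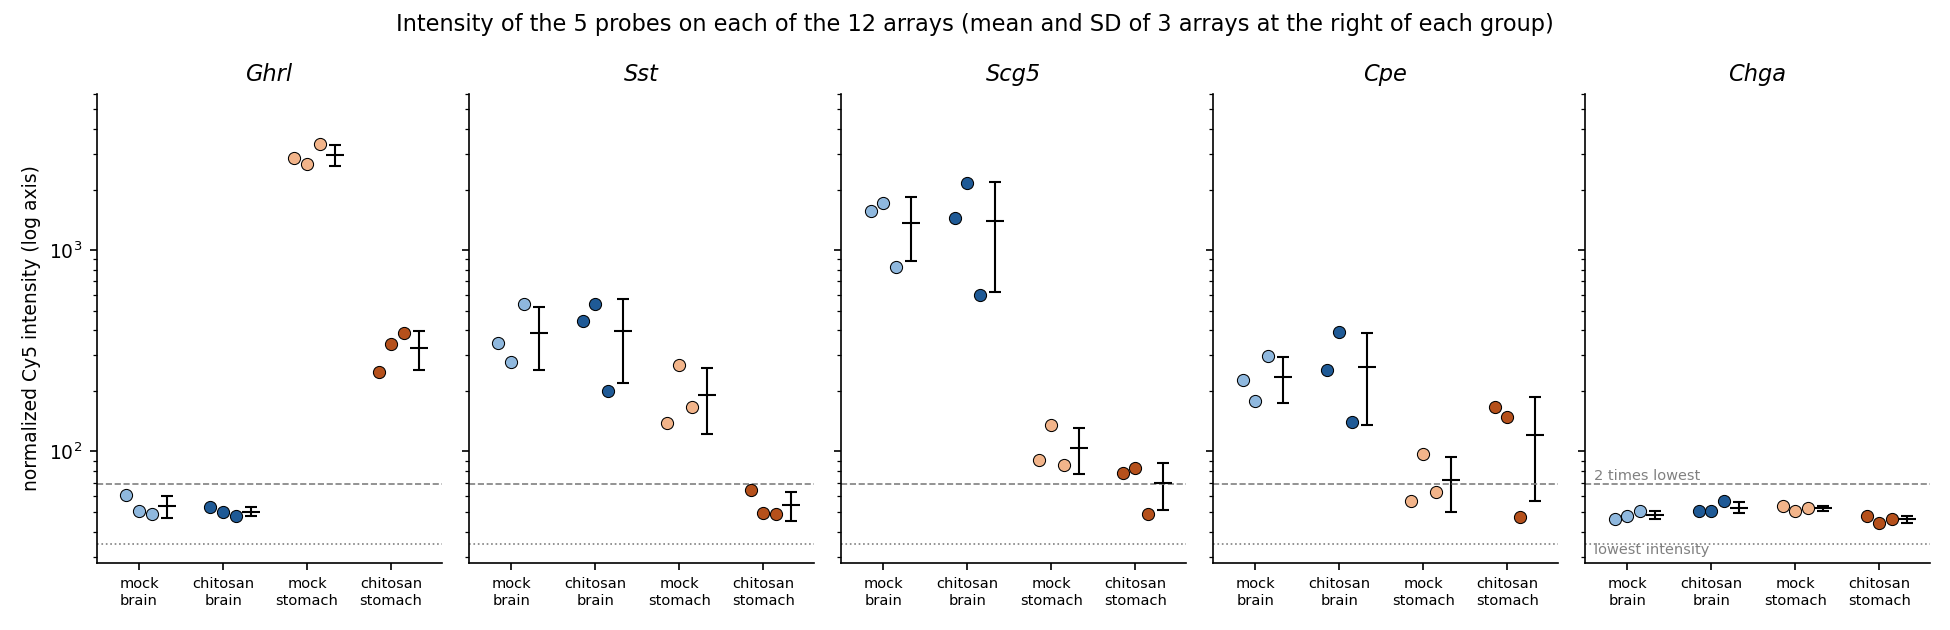
Normalized Cy5 intensity (log axis) of the 5 probes on each array, by group, with the mean and SD of 3 arrays beside the points; the lower line is the mean lowest intensity and the upper line is 2 times it. The 3 chitosan stomach arrays sit between 248 and 386 for Ghrl, all below the mock stomach arrays, and Chga stays between 43.9 and 56.5 on all 12.

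In the stomach, ghrelin was lower in every chitosan mouse than in every mock mouse. The chitosan stomach arrays had Ghrl intensities of 248, 342 and 386, against the mock values of 2669 to 3376 given above. The mean was 2970 ± 365 in mock and 325 ± 70.3 in chitosan (SD, n = 3), so that 10.9% of the mock mean remained, a 9.13-fold lower value. The log2 fold change was -3.21 (SE 0.34, 95% interval -4.01 to -2.40), second only to that of Pgc (-3.22) among the falls of all 29922 probes. The gene did not pass the test on the 6 stomach arrays (adjusted p = 0.097, limma), in which 0% of all probes were called. It passed with all 12 arrays in 1 model (adjusted p = 8.2e-04), in which 0.317% of all probes were called, and without an intensity trend (0.0155, with 0.0969% called). The 12-array model also takes its spread from the brain arrays, where Ghrl was at background. Its log2 SD was 0.17 in mock brain and 0.08 in chitosan brain, against 0.17 in mock stomach and 0.33 in chitosan stomach. A call in that model of a gene at background in the brain rests in part on that spread. Leaving out chitosan stomach array 2 moved the adjusted p on the stomach arrays to 0.947 with a fold change of -3.26. In a whole organ, fewer cells of a type and less RNA per cell cannot be told apart.

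Somatostatin in the chitosan stomach was at background. Its intensities were 64.25, 49.3 and 48.7, none above 2 times the lowest, where the mock stomach arrays had 138 to 268. The mean was 54.1 ± 8.81 against 191 ± 68.5, and the groups did not overlap. The log2 fold change of -1.77 (SE 0.30, 95% interval -2.47 to -1.08) did not pass the test (adjusted p = 0.241, limma), also not with all 12 arrays (0.23). Because the chitosan values lie near the lowest intensity, the size of the fold change depends on the offset. After each array's lowest intensity was subtracted and a small constant was added, it was -2.95 for Sst and -3.36 for Ghrl.

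The granule genes differed less, and not in one direction. Scg5 had chitosan stomach intensities of 77.75, 82.6 and 48.7, all below the lowest mock value of 85.9. Its log2 fold change was -0.59 (SE 0.27, 95% interval -1.22 to 0.05, adjusted p = 0.853, limma). Cpe had 167, 149 and 47.5, so that 2 of the 3 arrays lay above and 1 below all mock stomach arrays (56.5 to 97.3). Its log2 fold change was 0.59 (SE 0.48, 95% interval -0.54 to 1.72, adjusted p = 0.855), and the exact permutation test gave p = 0.4. Array 3, the array with the fewest distinct intensities, was the low one for both Scg5 and Cpe. With the number of distinct intensities as a covariate, Cpe was higher by 1.56 (adjusted p = 0.0136) and Scg5 was at 0.043. In that fit 1.72% of all probes were called. The array property cannot be told apart from the mouse, and it also differed between the groups. Chga was lower by 0.19 on the log2 scale within background (chitosan 43.9 to 47.6, mock 50.75 to 53.7).

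Counted over the 5 genes, 0 passed the test on the stomach arrays, 3 had an unadjusted p under 0.05 (Ghrl, Sst and Chga) where 5.25% of all probes did, and the methods' t-test gave the same 3 and 0 after adjustment. Ghrl and Sst were lower by more than 2-fold, where 0.394% of all probes were. Ghrl, Sst, Chga and Scg5 were lower without overlap of the groups, where 5.37% of all probes were. Because the 5 genes were chosen with earlier results of these data known, these shares do not test them as a set. Chga is counted here although it lay within background.

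**Figure D2:**
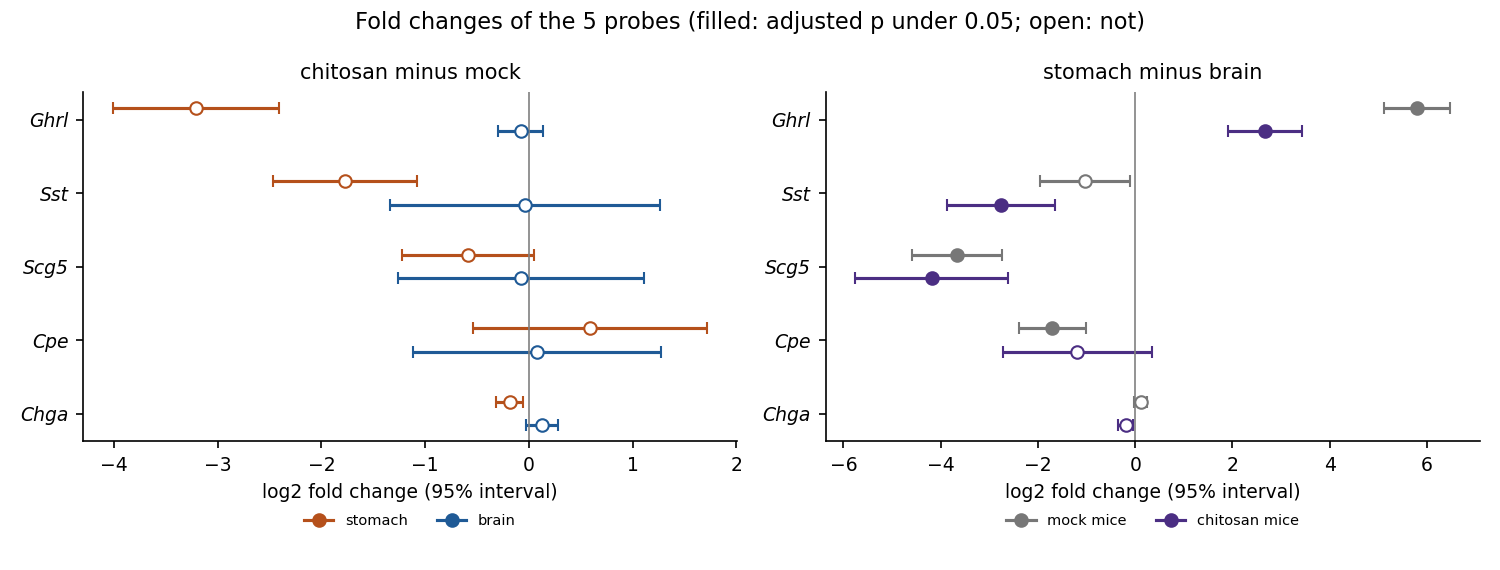
Log2 fold change with its 95% interval (x axis) of the 5 genes for chitosan minus mock in each organ (left) and for stomach minus brain in each treatment (right). Ghrl lies at -3.21 and Sst at -1.77 in the stomach, both near 0 in the brain; filled points passed an adjusted p of 0.05.

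In the brain the same genes showed no difference that passed the test. Sst had intensities of 446, 542 and 199 on the chitosan brain arrays, around the mock values, with means of 396 ± 177 and 388 ± 135. Scg5 had 1445, 2151 and 598.5, again on both sides of the mock arrays, and Cpe had 253, 394 and 141. The log2 fold changes were -0.04 for Sst (95% interval -1.34 to 1.27), -0.08 for Scg5 (-1.26 to 1.11) and 0.08 for Cpe (-1.12 to 1.28). These intervals are wide enough to hold a 2-fold change in either direction. Ghrl stayed at background (47.8 to 53.25 in chitosan brain), with a log2 fold change of -0.08 (95% interval -0.30 to 0.14). Chga was higher by 0.13 without overlap, a difference within background that 5% of all probes showed without overlap. None of the 5 was called, none had an unadjusted p under 0.05 (6.5% of all probes had one), and 0% of all probes were called; with 12 arrays in 1 model 0.01% were, none of the 5 among them.

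The stomach response of ghrelin differed from its brain response. The difference between the responses was -3.13 on the log2 scale (SE 0.44, adjusted p = 0.0187, limma, interaction over 12 arrays), the third most negative of all probes and one of 0.251% called. It also passed with the replicate number as a block (0.0475). It was lost without any one of mock brain arrays 1 to 3, chitosan brain array 1 or chitosan stomach array 2, with adjusted p values of 0.067 to 0.0937. For Sst the difference was -1.74 (SE 0.63) and did not pass (adjusted p = 0.419), and for Scg5, Cpe and Chga it was -0.51, 0.51 and -0.31, with adjusted p values of 0.818, 0.815 and 0.242. Ghrl was at background in the brain, so that a fall there could not have been seen.

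In the chitosan mice Ghrl, Scg5 and Sst differed between the organs. Ghrl was still higher in stomach than in brain (2.67, SE 0.32, adjusted p = 0.0093, limma), and Scg5 was lower in stomach (-4.18, SE 0.67, adjusted p = 0.0234). Sst, which had not passed in the mock mice, was lower in stomach by 2.76 on the log2 scale (SE 0.47, adjusted p = 0.0301); the difference between the organ contrasts is the -1.74 given above, which did not pass. Cpe, with overlapping groups, had -1.19 (adjusted p = 0.585). These 3 calls, where 2.38% of all probes were called, were all lost without chitosan brain array 1 or 2 or chitosan stomach array 2; Ghrl alone was left without chitosan stomach array 1, and Ghrl and Scg5 without array 3.

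Sst and Cpe followed each other over the brain arrays of both treatments. From low to high both ran through chitosan array 3, mock 2, mock 1, chitosan 1, mock 3 and chitosan 2, giving Pearson's r = 0.96 and Spearman's rho = 1 over 6 arrays (exact permutation p = 0.0028 each, adjusted 0.0083 over 3 pairs). Without the 2 arrays farthest from the Sst median r was 0.85. Scg5 gave r = 0.45 with Sst (rho = 0.43, exact permutation p = 0.36 and 0.42) and 0.54 with Cpe (rho = 0.43, p = 0.26 and 0.42). Of 3471 probes expressed in the brain, 61 (1.757%) were at least as correlated with Sst as Cpe was. Within each brain group Sst and Cpe both rose in the order of the number of distinct intensities. That number was 308, 357 and 382 on the mock arrays and 447, 648 and 947 on the chitosan arrays, from low to high Sst. The part of this array property in the correlation of Sst with Cpe was not tested. Within one treatment there are only 3 arrays, too few for a correlation.

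**Figure D3:**
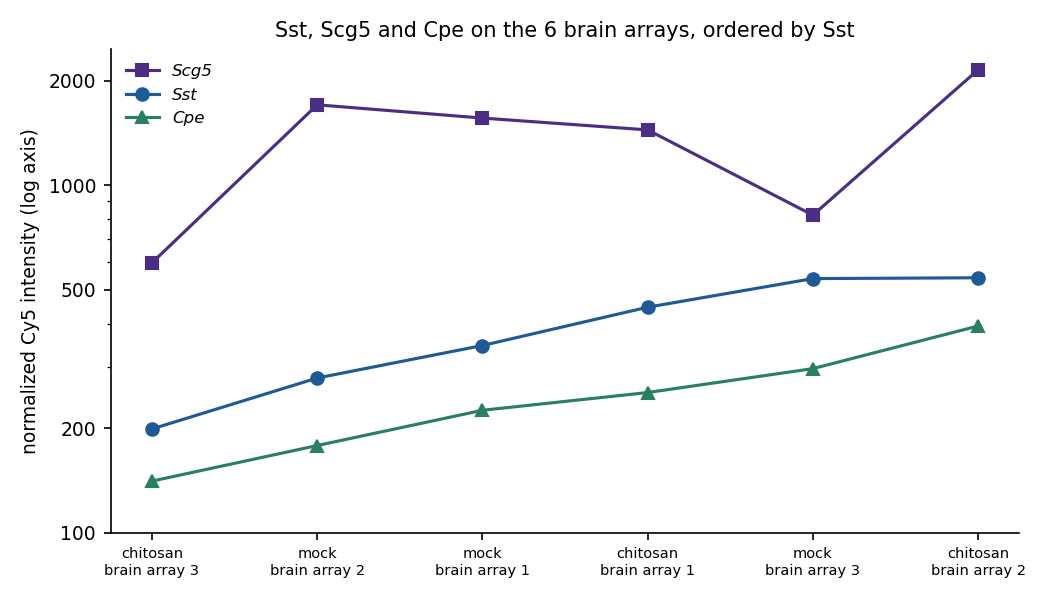
Normalized Cy5 intensity (log axis) of Scg5, Sst and Cpe on the 6 brain arrays, ordered by Sst from low to high. Sst and Cpe climb in the same order from 199 and 141 to 542 and 394, while Scg5 drops to 821 on mock array 3.

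Other genes of the pathway were read from lists of current textbook members, each gene by its brightest probe. Among 18 other gut hormones 5 were expressed in the stomach, 8 were higher and 10 lower, and the median log2 fold change was -0.02, against 0.01 over all probes. Gast (gastrin) and Cck were at background in the stomach of both groups, and Gcg (glucagon) had means of 60.8 ± 5.75 in mock and 46.4 ± 1.46 in chitosan. Nucb2, the precursor of the satiety peptide nesfatin, had the highest level of the list and large spread (548 ± 212 in mock, 440 ± 226 in chitosan). Npy, an appetite peptide of neurons, had means of 76.6 ± 4.55 and 45.7 ± 5.86, a log2 fold change of -0.75 (adjusted p = 0.172, limma). Gal (galanin) was the 1 gene of this list that passed with 12 arrays (70.8 in mock, 45.9 in chitosan, adjusted p = 0.040).

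The machinery around the hormones was mostly at background on these arrays. Of 8 granins and cargo genes 1 was expressed in the stomach, of 15 granule membrane and exocytosis genes 1, of 11 processing enzymes 2, and of 8 receptor and related genes none, with Ghsr, the ghrelin receptor, and Sstr1 to Sstr4 at background in both organs. Furin, a convertase of the secretory pathway, had means of 225 ± 70.5 and 126 ± 62.7 (log2 fold change -0.89, adjusted p = 0.853). Pam, the amidating enzyme, had 77.1 ± 3.87 and 50.25 ± 10.4 (-0.64, adjusted p = 0.543). In the brain Pcsk2, the convertase that Scg5 chaperones, had 336 ± 41.2 in mock and 362 ± 113 in chitosan, and Ptprn, a granule membrane protein, had 245 ± 36.5 and 215 ± 51.6. Nnat (neuronatin), read with the cargo genes, had 97.6 ± 13.4 and 313 ± 37.2 in the brain, a log2 difference of 1.68 that did not pass the test (adjusted p = 0.54). Of 13 transcription factors of endocrine cell development 1 was expressed in the stomach, Foxa1 (79.1 ± 4.08 in mock, 56.0 ± 5.23 in chitosan), which passed with 12 arrays (adjusted p = 0.040). None of 6 genes of amine-storing endocrine cells was expressed there, Hdc, which makes histamine, among them (46.2 and 48.6). No gene of these lists passed the test on the 6 arrays of either organ.

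**Figure D4:**
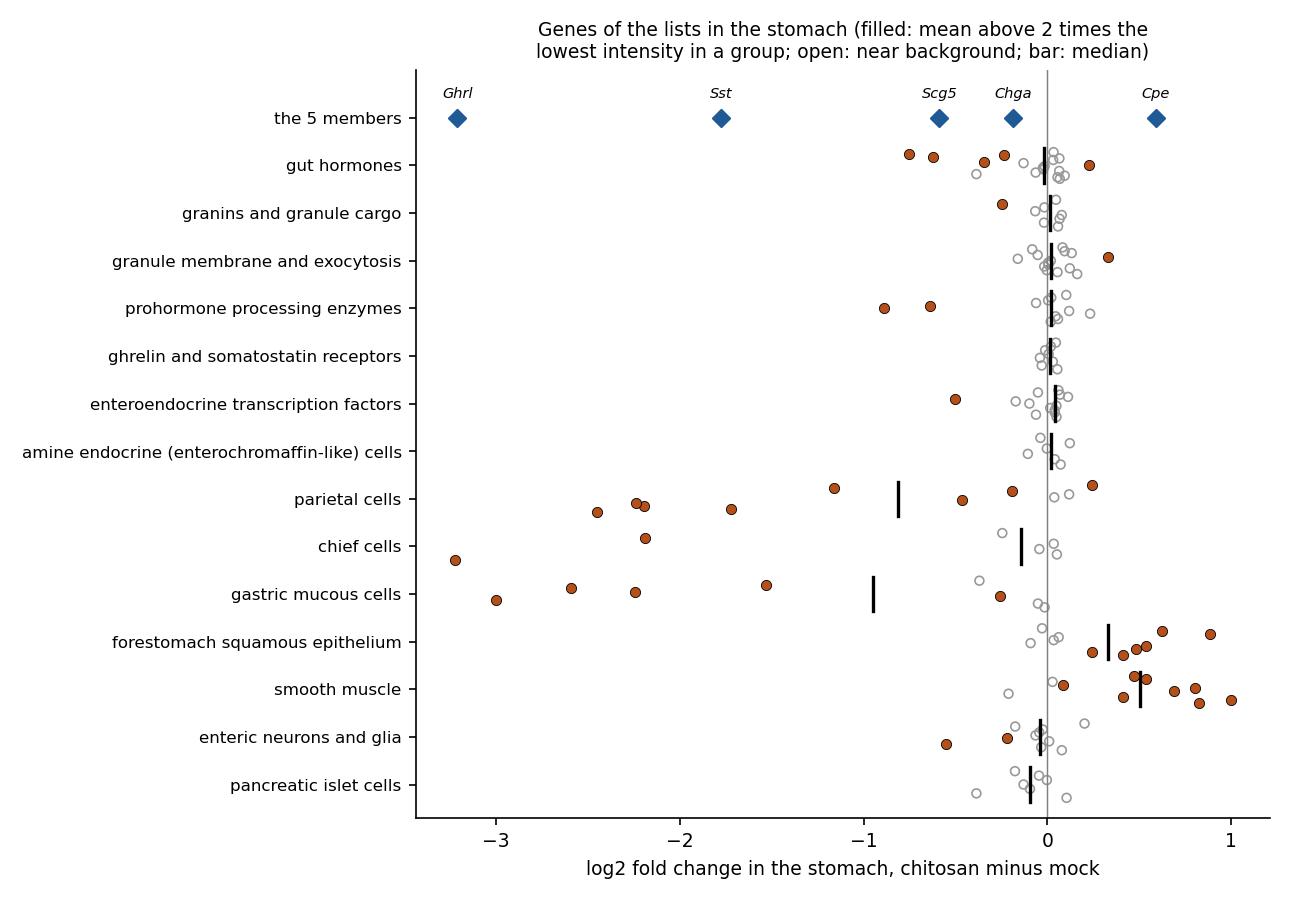
Log2 fold change in the stomach (x axis) of the 5 genes and of the genes of 14 lists (rows); filled points have a mean above 2 times the lowest intensity in a stomach group, open points do not, and bars are medians over all genes of a list. The endocrine and granule lists lie mostly near 0 at background, while parietal, chief and mucous genes reach to the left (medians -0.81, -0.15 and -0.95).

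Markers of the cells that neighbor the ghrelin and somatostatin cells in the gastric glands were lower beside them, although none passed the test on the 6 stomach arrays. Of 10 parietal cell genes 7 were lower and 5 passed with 12 arrays, where 0.317% of all probes did. Among the 5 were Gif, intrinsic factor (1121 ± 123 in mock, 247 ± 45.6 in chitosan), and Atp4a, the acid pump (550 ± 127 and 113 ± 59.2). Of 6 chief cell genes 2 were expressed, and both passed with 12 arrays: Pgc (2300 ± 569 and 243 ± 42.9) and Chia, a chitinase (1135 ± 273 and 253 ± 75.7). On the stomach arrays alone their adjusted p values were 0.125 and 0.551, with 0.44 for Gif, 0.626 for Atp4a and 0.331 for Tff2 (limma). Of 8 mucous cell genes 5 were expressed, all 8 had a negative log2 fold change, and Tff2 and Agr2 passed with 12 arrays. Gif, Atp4a, Pgc, Chia, Tff2 and Agr2 were at background in both brain groups, whose spread enters the 12-array model. The fall was not uniform. Ckmt1, the third brightest of the parietal list, was higher (398 ± 58.8 in mock, 470 ± 57.7 in chitosan). Gkn1 overlapped between the groups (128, 1903 and 163 in mock, 928.5, 434 and 57.7 in chitosan). Psca had a wide spread in mock (748, 4360 and 826). The summed intensity of the parietal list ran from 3460 to 3833 in mock and from 1254 to 1671 in chitosan, and that of the chief list from 3299 to 3902 and from 660 to 709. In the other direction, 9 of 10 smooth muscle genes and 8 of 10 genes of the squamous forestomach were higher, with summed intensities of 8090 to 9878 against 14725 to 17321 and of 15011 to 17943 against 19669 to 25648. The median log2 fold changes of the 2 lists were 0.50 and 0.33, against 0.01 over all probes. None of these muscle and forestomach genes passed in either model. The defining islet markers, Ins2 and Gcg included, were at background in both groups, and of 11 acinar genes only Clps (colipase) was above it (18941 ± 1965 and 4331 ± 1599). Clps passed with 12 arrays (adjusted p = 0.0251, limma). So did Apoa1, read with the intestinal epithelium genes (504 ± 67.6 and 112 ± 22.7, adjusted p = 8.3e-04). The part of these gland, muscle and forestomach markers in the Ghrl and Sst values was not tested.

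**Figure D5:**
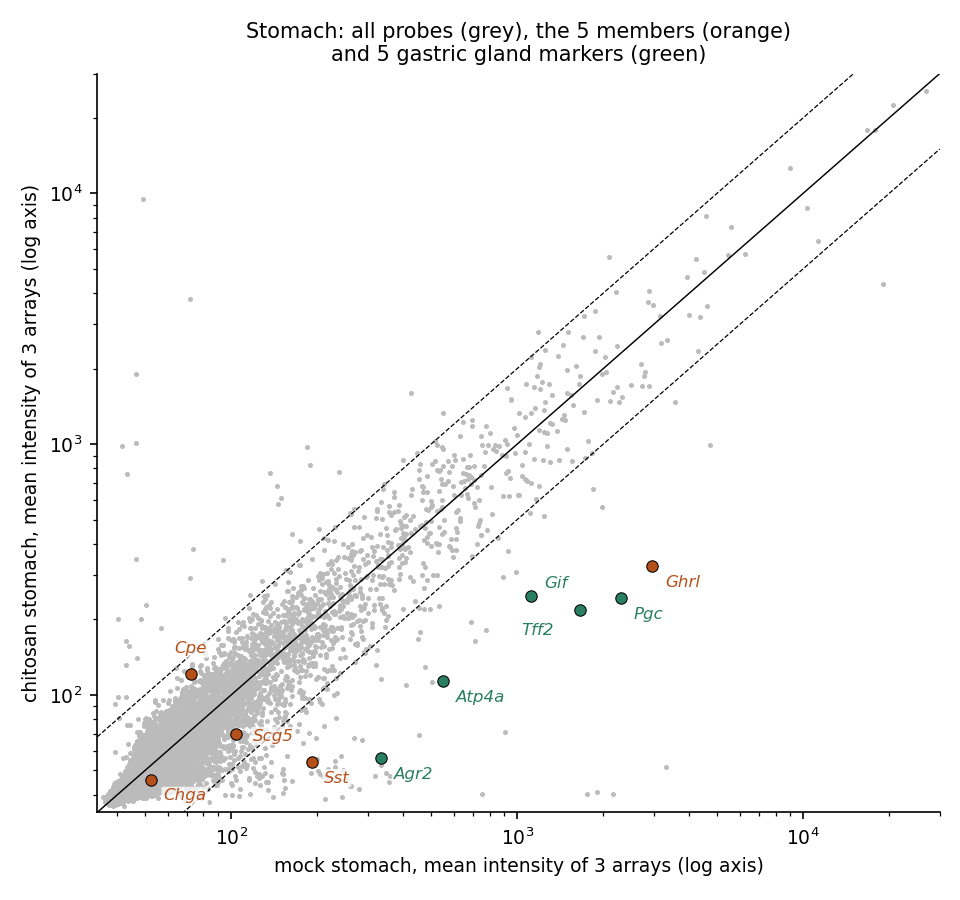
Mean intensity of 3 mock stomach arrays (x axis, log) against that of 3 chitosan stomach arrays (y axis, log) for all probes, with equality (solid line) and 2-fold lines (dashed). Ghrl (2970 and 325) lies beside the gland markers Pgc, Gif, Tff2 and Atp4a, and Sst (191 and 54.1) beside Agr2 below the 2-fold line. The gland markers named in the plot were all lower with chitosan. Ckmt1, which was higher, and Gkn1, which overlapped, are not named there.

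The genes most like Ghrl over the 12 arrays included the gland genes Pgc, Gif and Chia, while 2210407C18Rik and Nat2 are in none of the gene lists. Among 3831 expressed genes, Pearson's r of log2 intensity with Ghrl was 0.997 for Pgc, 0.995 for Gif, 0.992 for 2210407C18Rik, 0.983 for Nat2 and 0.982 for Chia. Over the 6 stomach arrays alone and 2908 genes, Islr2, 2210407C18Rik, Pgc, Sult1c2 and Gif came first, from 0.995 to 0.991. Sst was most like Mal (0.961) and Glul (0.948), whose mock stomach means of 152 and 211 compare with chitosan stomach means of 48.3 and 75.2. Scg5 was most like Asphd1 (0.991) and Enc1 (0.987), genes of high brain and low stomach levels, and Cpe was most like Apoe (0.964) and Prkar1a (0.961). Chga, at background, was most like Mll1 (0.925). The arrays fall into 4 groups, so that these coefficients mostly describe group means, and they are given without a test.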

How the data were processed

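RNA of 12 organs (3 in each of 4 groups) was labeled with Cy5 and hybridized to single-color mouse whole genome arrays. Per the labels and the study's methods, the deposited values are linear intensities from which the authors had taken the surrounding background and dropped control and weak spots before normalizing in limma, by a method and version not named there. No value was missing. Intensities were taken to log2 without a pseudocount, apart from the small constant added where each array's lowest intensity was subtracted. The annotation names 21020 of 29922 probes. Arrays give no counts, so that precision rests on 3 arrays a group. In R 4.3.3, limma 3.58.1 (lmFit, eBayes with trend) was fitted to the 6 arrays of each contrast, or to all 12 for the difference of responses, with Benjamini-Hochberg adjustment over all probes; exact permutation tests were two-sided. The models were tested on simulated data. Figures and counts were made in Python 3.11.15.

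The 5 genes and the 20 gene lists (198 of 218 genes measured) were chosen with earlier results of these data known. Named were the 5 genes, the 4 brightest genes of a list in an organ, genes called, and the 5 genes most like each member; other genes (Agr2, Gal, Gast, Cck, Ghsr, Sstr1 to Sstr4, Ins2, and the neuron genes at background) were named after their values were seen. Replicate numbers did not pair mock with chitosan arrays. For chitosan brain and chitosan stomach arrays the same-numbered deviations correlated at 0.12, 0.45 and 0.60 over 2563 bright probes, and the block changed none of the 3 calls of that contrast. Differently numbered arrays reached a similar value, 0.57 for chitosan stomach array 1 with chitosan brain array 2. For mock brain and mock stomach arrays the same-numbered values were -0.04, -0.30 and -0.24. Alternatives were all 12 arrays in 1 model, no trend, the methods' t-test, centering on the median, quantile normalization again, a floor at the 20th percentile, only probes above the median, the replicate block, other definitions of fold change, the mean of a gene's probes, and each array left out. The number of distinct intensities as a covariate was added after seeing the data.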

Additional observations from a re-analysis of the deposited data

Results flagged for a closer look

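The response of Ghrl was unlike in the organs: the stomach response minus the brain response was -3.13 on the log2 scale (adjusted p = 0.0187, limma, interaction over 12 arrays). Ghrl was lower in all 3 chitosan stomach arrays and at background on all 6 brain arrays, so that a fall in the brain could not have been seen. The call was lost without any one of mock brain arrays 1 to 3, chitosan brain array 1 or chitosan stomach array 2. Chga was lower in all 3 chitosan stomach arrays and higher in all 3 chitosan brain arrays than in the mock arrays of the organ, and the difference between the responses was -0.31 (adjusted p = 0.242), which did not pass the test and lies within background.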

How the results depend on the processing

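In the stomach, 0 of the 5 probes passed, and with all 12 arrays in 1 model 1 did (Ghrl, -3.21), without an intensity trend 1 (Ghrl, -3.21), and with the distinct-intensity covariate 2 (Ghrl, -3.40, and Cpe). The shares of all probes called were 0.317% with all 12 arrays, 0.0969% without the trend and 1.72% with the covariate. The methods' t-test called 1 of the 5 between chitosan stomach and brain (1.30% of all probes), and the covariate called 2 for the difference of responses (3.22% of all probes). The covariate also turned the sign of Scg5 in the stomach (0.043) and of Ghrl (0.17) and Cpe (-1.20) in the brain, none of them called; the cause was not tested. With each array left out in turn, 0 to 0 members were called for the stomach and 0 to 0 for the brain, 2 to 3 for the mock organs, 0 to 3 for the chitosan organs and 0 to 1 for the difference of responses. In the same order, 0 to 3, 0 to 221, 1387 to 2135, 0 to 1128 and 8 to 212 of all 29922 probes were called. The stomach fold changes ran from -3.34 to -3.03 for Ghrl, -1.98 to -1.50 for Sst, -0.21 to -0.15 for Chga, -0.73 to -0.35 for Scg5 and 0.26 to 1.17 for Cpe. Those of the brain ran from -0.14 to 0.017 for Ghrl, -0.33 to 0.40 for Sst, 0.07 to 0.16 for Chga, -0.48 to 0.44 for Scg5 and -0.27 to 0.47 for Cpe. With the replicate number as a block Ghrl in the stomach had an adjusted p of 0.385 (-3.21), and same-numbered mock and chitosan arrays correlated at -0.41, 0.50 and 0.58 in the stomach and at -0.00, -0.37 and -0.33 in the brain; apart from Cpe between the mock organs the block changed no call. Values near the lowest intensity limit what can be said of Sst, Scg5 and Chga in the chitosan stomach.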
